A study of Homo sapiens with 18 samples.

Results

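The transcripts of 9 genes were followed through 18 RNA-seq libraries of MDA-MB-231 cells. They were GPS2, subunits of its corepressor complex (NCOR1, HDAC3, TBL1X and TBL1XR1), and the ubiquitin enzyme gene UBE2N with its partners (UBE2V1, TRAF2 and TRAF6). The genes were picked by symbol, and each symbol was matched to its Ensembl identifier. All 9 were present among the 57448 genes of the count table, and all 9 were among the 15587 genes that passed the filter of at least 1 CPM (reads of a gene relative to the TMM-scaled size of its library) in at least 3 libraries.

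MDA-MB-231 is an established triple negative breast cancer line, and every group came from it. The 6 groups of 3 libraries were unmodified parental cells (WT), the GPS2-directed CRISPR-Cas9 pools KO1 and KO2, cells with a retroviral myristoylated and therefore constitutively active AKT (myrAKT), and the same KO1 and KO2 pools after 4 h in 10 µM MK2206, an allosteric AKT inhibitor (KO1+MK and KO2+MK). KO1 and KO2 carried separate sets of sgRNAs directed at exons 2 and 6 of GPS2, delivered with LentiCRISPRv2, and were kept as heterogeneous puromycin-selected pools rather than clones. No library of WT or myrAKT cells treated with MK2206 was analysed here, so the effect of the inhibitor was measured on the KO background only. In bulk RNA from such pools, fewer cells with a transcript and less transcript per cell cannot be told apart.

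GPS2 is a small protein that works in different places. In the nucleus it is a core subunit of the NCoR corepressor complex, in which the scaffold NCOR1 holds and activates the histone deacetylase HDAC3, and the WD40 proteins TBL1X and TBL1XR1 bind histones and help to exchange corepressors for coactivators on nuclear receptor targets. GPS2 also inhibits UBC13, the product of UBE2N, an E2 enzyme that builds lysine 63-linked ubiquitin chains. The paper places this inhibition in inflammatory and insulin signalling and in chromatin remodelling, so it is not confined to the cytosol. UBC13 works only with a catalytically inactive E2 variant such as the UBE2V1 product UEV1A, and with RING-type ligases such as TRAF2 and TRAF6, which carry TNF-receptor and Toll-like or interleukin-1 receptor signals. Chains of this type also regulate AKT itself.

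The coding bases of exons 2 and 6 are shown because the sgRNA sets were directed at these exons. Where the KO pools were altered was not examined here. The sequences are from hg38, 5′ to 3′ on the minus strand, with each NGG, the motif that Cas9 needs beside its target on the printed strand, in capitals. The sgRNA sequences themselves were not used here. Exon 2 (its coding part, chr17:7314959-7315052, 94 bases from the start codon) holds 10 NGG motifs on the printed strand and 10 on the other. Exon 6 (chr17:7313906-7313988, 83 bases, all coding) holds 5 and 10.
GPS2 exon 2, coding part: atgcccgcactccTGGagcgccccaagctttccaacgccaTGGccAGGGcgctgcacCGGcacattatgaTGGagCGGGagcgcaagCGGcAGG
GPS2 exon 6: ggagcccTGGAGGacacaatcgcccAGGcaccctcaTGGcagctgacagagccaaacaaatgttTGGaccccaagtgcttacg

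The upstream regions of HDAC3, UBE2N and TRAF6 are shown because the calls of HDAC3 and UBE2N in both KO lines and of TRAF6 under MK2206 held at the same threshold under every other normalization, filter, tool, sample set and left-out library tried, although none of them reached a 1.5-fold change. Some other calls held in the same way, such as those of TBL1X in KO2 and in myrAKT and of TBL1XR1 in KO1, and their regions are not printed. The regions shown are the 250 bases before the RefSeq start in GRCh38.p14, all on the minus strand, printed 5′ to 3′: chr5:141636850-141637099 for HDAC3, chr12:93441948-93442197 for UBE2N and chr11:36510273-36510522 for TRAF6. Capitals mark the motifs found among 7 searched on both strands: the E-box CACGTG, the forkhead motif GTAAACA, the ETS motif CCGGAAG, the cyclic AMP response element TGACGTCA, the GC box GGGCGGGG, and the NRF1 and NF-kB motifs.
HDAC3: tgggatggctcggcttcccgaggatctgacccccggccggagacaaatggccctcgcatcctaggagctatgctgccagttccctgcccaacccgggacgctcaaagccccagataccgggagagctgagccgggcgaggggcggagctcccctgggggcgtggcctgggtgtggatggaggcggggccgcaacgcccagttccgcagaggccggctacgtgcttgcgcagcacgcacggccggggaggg
UBE2N: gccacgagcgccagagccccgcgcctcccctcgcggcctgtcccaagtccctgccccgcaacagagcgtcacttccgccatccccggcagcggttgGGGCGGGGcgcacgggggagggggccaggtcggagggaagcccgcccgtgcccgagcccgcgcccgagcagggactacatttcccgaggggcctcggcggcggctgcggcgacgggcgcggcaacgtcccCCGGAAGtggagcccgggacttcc
TRAF6: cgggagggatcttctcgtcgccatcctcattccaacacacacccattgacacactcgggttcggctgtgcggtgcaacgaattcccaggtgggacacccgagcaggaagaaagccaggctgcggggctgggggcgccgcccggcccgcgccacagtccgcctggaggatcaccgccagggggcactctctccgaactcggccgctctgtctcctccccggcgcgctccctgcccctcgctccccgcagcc

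UBE2N held an ETS motif and a GC box, and the windows of HDAC3 and TRAF6 held none of the 7. The ETS motif is in 8.52% of 35116 RefSeq promoters of the same length, the GC box in 21.8%, the E-box in 6.34%, the forkhead motif in 2.98%, the cyclic AMP response element in 1.65%, the NRF1 motif in 1.03% and the NF-kB motif in 0.18%. Over all start sites of the 9 genes, the ETS motif was found for GPS2, NCOR1, UBE2N and UBE2V1, the GC box for TBL1X, TBL1XR1 and UBE2N, and the E-box for TBL1X. All 3 printed windows were rich in G and C, at 70.8% for HDAC3, 77.2% for UBE2N and 69.6% for TRAF6, against a median of 58.0% over all promoters.

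Between 23419198 and 39319910 reads were counted on genes per library. The KO1+MK and KO2+MK libraries, at 23419198 to 29939536 reads, were all shallower than the untreated KO libraries, at 35627965 to 39319910. No pair of replicates looked like 1 library deposited again, with a mean chi-square per gene of 2.26 to 11.6 over 18 pairs. The labels do not say whether replicates came from separate cultures, so the p-values measure the spread between these libraries, which may be technical. The markers of a mesenchymal-like line VIM, CD44, EGFR, AXL and CAV1 averaged 343 to 1749 CPM in the groups, the hormone receptor gene PGR and the epithelial cadherin CDH1 averaged at most 0.121 CPM, and ESR1, GATA3 and FOXA1 averaged 0.763 to 8.92 CPM.

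The GPS2 row could not be read as a check of the knockout. GPS2 (ENSG00000132522, chr17:7311324-7315564, minus strand) has 11 exons in its canonical transcript, and all 1176 of their bases, including all 981 coding bases, are also exon of ENSG00000261915, an annotated protein-coding gene on the same strand that starts upstream of GPS2 and reads through it. A further 241 bases of the 3089 that any GPS2 transcript counts as exon are shared with EIF5A, the translation factor gene on the opposite strand. Of the 1468 exon bases that GPS2 shares with no gene, 1440 lie in introns of the canonical transcript. How the counting treated reads that fall in more than 1 gene is not given in the sources used here. GPS2 received 123 to 236 counts per library and ENSG00000261915 received 0 to 6. Small insertions or deletions made by Cas9 also need not lower a read count, so the groups are called by their labels throughout. The study checked the KO lines by western blot and by PCR on genomic DNA, which were not analysed here.

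**Figure D1:**
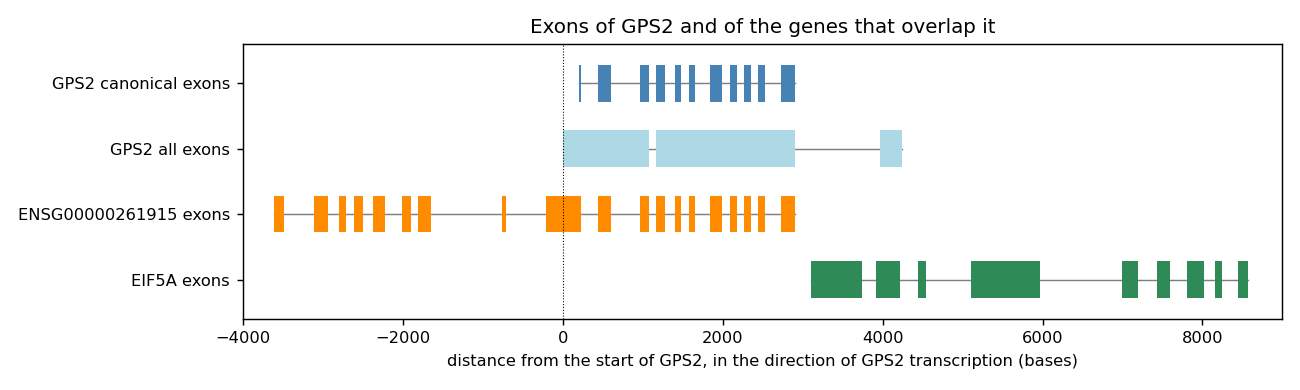
Exons of GPS2 (canonical transcript and all transcripts merged), ENSG00000261915 and EIF5A, plotted as boxes against the distance in bases from the start of GPS2 in the direction of its transcription. Each box of the canonical GPS2 row has ENSG00000261915 exon under it, which is the 100% sharing of 1176 bases, and the EIF5A exons reach only the far end of GPS2.

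Exon sharing was uneven among the other genes. UBE2V1 (ENSG00000244687, chr20:50081124-50115959) shares 2066 of its 2110 canonical exon bases (97.9%) with the readthrough gene PEDS1-UBE2V1, which received 0 to 2 counts per library, and UBE2N (ENSG00000177889, chr12:93405673-93441947) shares 50.5% of its canonical exon bases, but none of its coding bases, with NUDT4 on the opposite strand. The shares were 5.48% for HDAC3 (ENSG00000171720, chr5:141620876-141636849), 2.53% for NCOR1 (ENSG00000141027, chr17:16029065-16218185) and 0.892% for TBL1XR1 (ENSG00000177565, chr3:177019340-177228000), each with genes on the opposite strand. TBL1X (ENSG00000101849, chrX:9463320-9741037), TRAF2 (ENSG00000127191, chr9:136881912-136926607) and TRAF6 (ENSG00000175104, chr11:36483769-36510272) share no exon base. Values of GPS2 and UBE2V1 are therefore uncertain as measures of their mRNAs.

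Per kilobase of exon that belongs to no other gene, the levels in WT cells ran from 37.4 CPM for UBE2N over 23.3 for NCOR1, 20.8 for TBL1XR1, 17.1 for HDAC3 and 12.3 for TBL1X to 6.40 for TRAF2, 4.69 for UBE2V1, 3.10 for GPS2 and 2.48 for TRAF6. With the same reads divided by all exon bases, shared ones included, UBE2N was at 21.9, just below NCOR1 at 22.0, UBE2V1 at 2.66 and GPS2 at 1.48, below TRAF6, so the places of UBE2N and GPS2 in this order depend on how shared reads were counted. On both scales the E2 enzyme lay above the ligases TRAF2 and TRAF6 in level per length. Whether a gene differed anywhere among the 6 conditions was asked with an F test over all 18 libraries in edgeR, called at an adjusted p of at most 0.001. NCOR1, HDAC3, TBL1X, TBL1XR1, UBE2N and TRAF6 were called, 6 of the 9 genes, where 75.5% of all genes tested were called. GPS2 (adjusted p = 0.00239), UBE2V1 (0.0554) and TRAF2 (0.0650) were not.

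**Figure D2:**
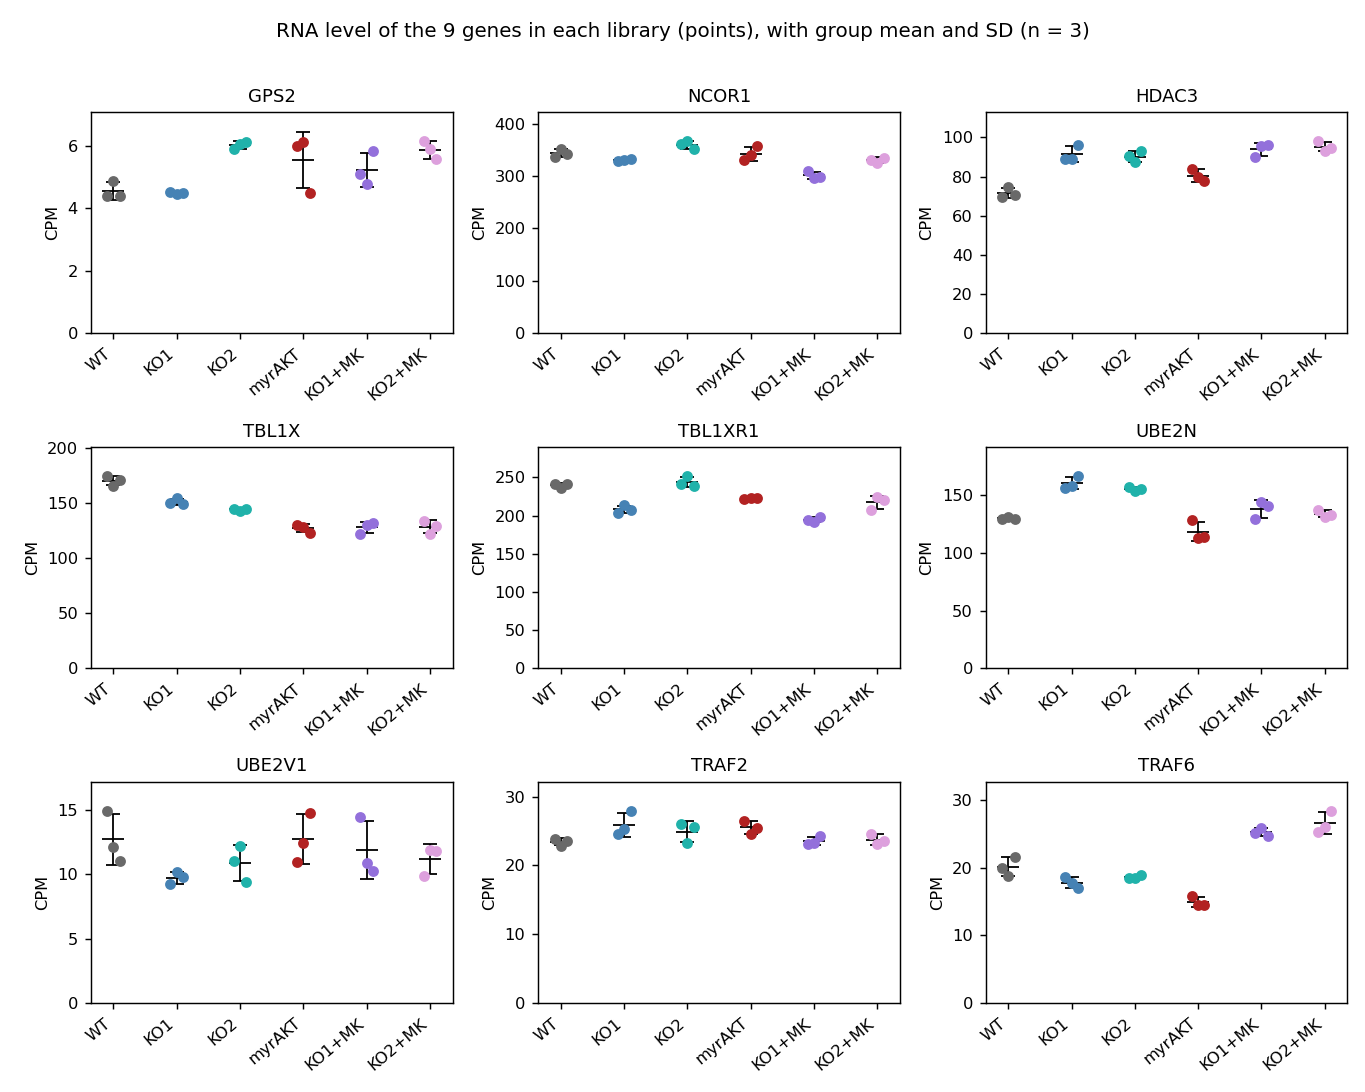
CPM of each of the 9 genes (vertical axis, from 0) in the 3 libraries of each of the 6 groups, with black bars for the group mean and SD. HDAC3 lies at 69.5 to 74.7 CPM in WT and at 87.2 CPM or more in every KO library, treated or not, and TRAF6 lies at 24.7 CPM or more in every MK2206-treated library and at 15.8 CPM or less in every myrAKT library.

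GPS2, the gene targeted in the KO pools, was not lower in them. Its level was 4.39, 4.88 and 4.40 CPM in WT, 4.52, 4.45 and 4.50 CPM in KO1 and 5.89, 6.07 and 6.12 CPM in KO2. The KO1 libraries lay inside the WT range, while every KO2 library lay above it. Against WT the log2 fold change was -0.02 ± 0.101 (SE, n = 3 against 3) in KO1 (edgeR adjusted p = 0.868) and 0.40 ± 0.0953 in KO2 (adjusted p = 0.00181, past 0.05 but not past the threshold of 0.001). The difference between the KO lines, -0.42 ± 0.0915 for KO1 against KO2, also missed the threshold (adjusted p = 0.00140). In myrAKT the libraries held 6.01, 6.11 and 4.49 CPM, so the last one sat at the WT level and the others at the KO2 level. In KO1+MK the level was 5.10, 4.77 and 5.83 CPM and in KO2+MK 6.14, 5.89 and 5.58 CPM, and neither treated line differed from its untreated line by the test (adjusted p = 0.114 and 0.766). EIF5A, which shares exon with GPS2, averaged 668 CPM in WT, 974 in KO1, 884 in KO2 and 569 in myrAKT, and its part in the GPS2 values was not tested.

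NCOR1, the scaffold of the complex, stayed within a narrow band. It had 337, 352 and 342 CPM in WT, 329, 331 and 332 CPM in KO1, 361, 366 and 351 CPM in KO2 and 330, 341 and 357 CPM in myrAKT. KO1 lay wholly below WT and KO2 mostly above it, and the log2 fold changes against WT of -0.05 ± 0.0298 in KO1, 0.07 ± 0.0344 in KO2 and 0.00 in myrAKT (95% interval -0.10 to 0.09) did not pass the test (adjusted p = 0.120, 0.110 and 0.942). MK2206 gave 309, 296 and 299 CPM in KO1+MK and 331, 325 and 335 CPM in KO2+MK. All treated libraries were below their untreated line, with log2 fold changes of -0.14 ± 0.0369 and -0.12 ± 0.0371 that missed the threshold (adjusted p = 0.00820 and 0.0120). In the order of mean levels, KO1+MK (301 CPM) was lowest and KO2 (360 CPM) highest, and the ranges of KO1, KO2+MK, myrAKT and WT overlapped in part between them.

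HDAC3, the deacetylase of the complex, was higher in every KO library than in any WT library. WT held 69.5, 74.7 and 70.5 CPM, KO1 88.9, 89.2 and 96.2 CPM, and KO2 90.3, 87.2 and 93.0 CPM. HDAC3 rose 1.28-fold in KO1 (log2 fold change 0.35 ± 0.0414, adjusted p = 2.89e-06) and 1.26-fold in KO2 (0.33 ± 0.0395, adjusted p = 3.53e-06), and 1.27-fold with both lines pooled (6 against 3 libraries, adjusted p = 2.46e-05). The KO lines overlapped each other, and their log2 difference of 0.02 had a 95% interval of -0.06 to 0.10. The myrAKT libraries, at 84.1, 79.9 and 77.7 CPM, lay between the WT and KO ranges without overlapping either, and their log2 fold change against WT of 0.17 ± 0.0471 missed the threshold (adjusted p = 0.00684). The level in KO1+MK was 90.1, 95.4 and 96.4 CPM and in KO2+MK 98.0, 93.3 and 94.7 CPM. After 4 h of MK2206 every library was still above every WT library, and the log2 change with treatment was 0.04 (95% interval -0.04 to 0.12) in KO1 and 0.08 (-0.00 to 0.16) in KO2.

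TBL1X, a WD40 subunit that helps to exchange corepressors on target genes, was highest in WT and lower in all other groups. It had 174.5, 166.0 and 170.6 CPM in WT, 150.0, 154.2 and 149.5 CPM in KO1, and 144.8, 143.0 and 144.8 CPM in KO2. No KO library reached the lowest WT library, and TBL1X fell in KO1 (log2 fold change -0.17 ± 0.0313, adjusted p = 0.000211) and in KO2 (-0.24 ± 0.0330, adjusted p = 1.57e-05). The KO1 call was lost without WT replicate 3, KO1 replicate 1 or KO1 replicate 3 and when genes of low count were kept in the test, with an adjusted p of at most 0.00232 in all alternatives. In myrAKT the level was 130.1, 127.9 and 123.0 CPM, the log2 fold change was -0.42 ± 0.0435 (adjusted p = 1.06e-06), and the range lay below that of both untreated KO lines. With MK2206 the level was 122.0, 130.1 and 131.7 CPM in KO1+MK and 133.7, 122.2 and 129.6 CPM in KO2+MK, overlapping myrAKT. The treated libraries all lay below those of their untreated line. The fall with treatment was called in KO1 (-0.24 ± 0.0393, adjusted p = 0.000213), where it was lost without any 1 of the KO1 replicates (adjusted p of at most 0.00206), but in KO2 it missed the threshold (-0.17 ± 0.0406, adjusted p = 0.00294).

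TBL1XR1, the paralog of TBL1X, separated the KO lines. It had 242, 236 and 241 CPM in WT, 204, 213 and 207 CPM in KO1, and 242, 252 and 239 CPM in KO2. KO1 lay wholly below WT and KO2 overlapped it. TBL1XR1 fell in KO1 (-0.20 ± 0.0303, adjusted p = 3.17e-05) but was not called in KO2 (0.03 ± 0.0339, adjusted p = 0.519), and the difference itself passed the test (KO1 against KO2, -0.23 ± 0.0334, adjusted p = 2.84e-05). The myrAKT libraries were tightly grouped at 222 to 223 CPM, below every WT library (-0.11 ± 0.0414, adjusted p = 0.0415, not called). MK2206 gave 194, 191 and 198 CPM in KO1+MK and 208, 224 and 220 CPM in KO2+MK. The treated libraries lay below their untreated line in both cases, with log2 changes of -0.10 and -0.17 that missed the threshold (adjusted p = 0.0402 and 0.00275). KO1+MK lay wholly below KO2+MK, a difference that was not tested.

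UBE2N, which encodes the E2 enzyme UBC13 that GPS2 inhibits, was higher in both untreated KO lines and not in myrAKT cells. WT held 130, 131 and 129 CPM, KO1 157, 159 and 167 CPM, and KO2 157, 154 and 156 CPM. Every KO library lay above every WT library, and UBE2N rose 1.24-fold in KO1 (log2 fold change 0.30 ± 0.0324, adjusted p = 1.09e-06) and 1.20-fold in KO2 (0.26 ± 0.0316, adjusted p = 5.21e-06). The log2 difference between the lines was 0.05, with a 95% interval of -0.02 to 0.11. In myrAKT the libraries had 128, 113 and 114 CPM, each below the lowest WT library, with a log2 fold change of -0.14 ± 0.0506 that was not called (adjusted p = 0.0340). With MK2206 the level was 130, 145 and 140 CPM in KO1+MK and 138, 131 and 133 CPM in KO2+MK. All were below every untreated library of their line, and 1 KO1+MK library lay inside the WT range. UBE2N fell by 0.22 on the log2 scale with both lines pooled (6 against 6 libraries, adjusted p = 9.23e-05). The change was -0.22 ± 0.0446 in KO1 (adjusted p = 0.00141, not called) and -0.21 ± 0.0375 in KO2 (adjusted p = 0.000166), where the call was lost without KO2 replicate 1, KO2 replicate 3 or KO2+MK replicate 2 (adjusted p of at most 0.00277). NUDT4, which overlaps the 3′ end of UBE2N on the opposite strand, averaged 56.6 CPM in WT, 55.2 in KO1 and 56.8 in KO2 and was not called in these comparisons.

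UBE2V1, which encodes the UEV1A partner of UBC13, was low and scattered. Its libraries ran from 11.1 to 14.9 CPM in WT, 9.26 to 10.2 in KO1, 9.38 to 12.2 in KO2, 10.9 to 14.8 in myrAKT, 10.3 to 14.4 in KO1+MK and 9.87 to 11.9 in KO2+MK. Neighbouring groups in the order of means, from KO1 (9.73 CPM) to myrAKT (12.7 CPM), overlapped, and KO1 lay wholly below WT, myrAKT and KO1+MK. No comparison of UBE2V1 was called, the nearest being KO1 against WT (-0.38 ± 0.0978, adjusted p = 0.00304).

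TRAF2, the adaptor and ligase of TNF receptors, was called in no comparison. It had 22.9 to 23.9 CPM in WT, 24.6 to 27.9 in KO1, 23.2 to 26.0 in KO2, 24.6 to 26.5 in myrAKT, 23.1 to 24.2 in KO1+MK and 23.1 to 24.6 in KO2+MK. The 95% intervals of its log2 fold change were 0.03 to 0.25 in KO1, -0.02 to 0.19 in KO2 and 0.01 to 0.23 in myrAKT against WT, and the adjusted p-values were 0.0355, 0.179 and 0.0797.

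TRAF6, the ligase of the interleukin-1 and Toll-like receptor pathways, gave the largest change of the 9 genes. Its level was 20.0, 18.8 and 21.6 CPM in WT, 18.7, 17.8 and 17.0 CPM in KO1, and 18.5, 18.5 and 18.9 CPM in KO2. KO1 lay just below WT and KO2 touched it, and neither was called (log2 fold changes -0.18 ± 0.0635 and -0.11 ± 0.0600, adjusted p = 0.0235 and 0.106). After MK2206 the level was 25.1, 25.9 and 24.7 CPM in KO1+MK and 25.2, 26.0 and 28.4 CPM in KO2+MK. Every treated library lay above every untreated library of any group, and TRAF6 rose 1.42-fold in KO1 (0.50 ± 0.0560, adjusted p = 7.54e-06) and 1.43-fold in KO2 (0.51 ± 0.0600, adjusted p = 2.69e-06). In myrAKT, with AKT active, the level was 15.8, 14.5 and 14.4 CPM, below all other libraries. TRAF6 fell there by 0.43 on the log2 scale (SE 0.0709, adjusted p = 0.000117), a call lost without WT replicate 3 or myrAKT replicate 2 (adjusted p of at most 0.00119). The order of mean levels was thus myrAKT, KO1, KO2, WT, KO1+MK and KO2+MK, in which KO1 and KO2 overlapped, KO2 and WT overlapped, and the treated lines overlapped.

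**Figure D3:**
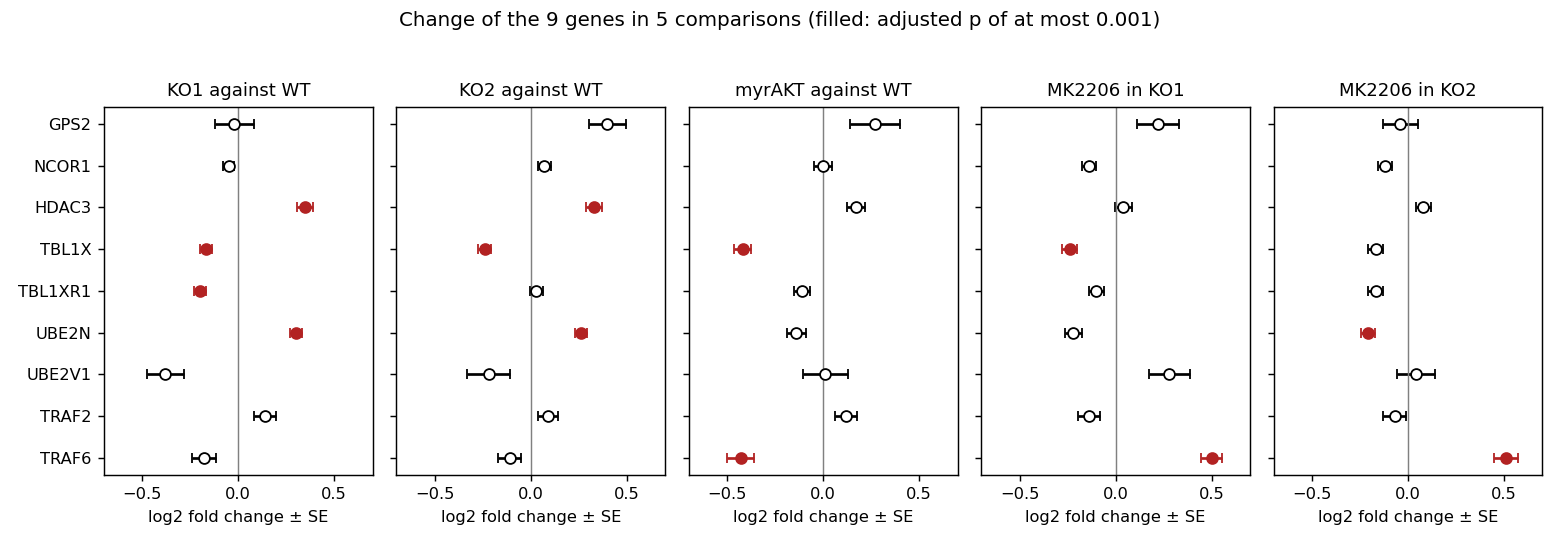
Log2 fold change (horizontal axis) with SE of the 9 genes in 5 comparisons, filled where the edgeR adjusted p was at most 0.001. HDAC3 and UBE2N are filled to the right of 0 and TBL1X to the left in both KO lines, TBL1X and TRAF6 to the left in myrAKT, and TRAF6 to the right in both MK2206 panels.

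The comparison of KO with WT sets the GPS2-directed pools against unmodified parental cells. The pools also went through viral transduction and puromycin selection, which cannot be told apart here from loss of GPS2. No pool with a non-targeting sgRNA was analysed. In KO1, HDAC3 and UBE2N were higher and TBL1X and TBL1XR1 lower. That is 2 of 9 genes called higher and 2 lower, where 22.0% of all genes tested were higher and 20.0% lower. In KO2, HDAC3 and UBE2N were higher and TBL1X lower, 2 and 1 of 9 against 21.7% and 22.1% of all genes. With both lines together the same 3 genes were called, 2 higher and 1 lower against 16.9% and 15.5%. These shares were near those of all genes, and no member reached a 1.5-fold change in any comparison. The TBL1X call with both lines together was lost without WT replicate 1 or 3, without the filter on low counts and with the replicate number as a block (adjusted p of at most 0.00238).

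In myrAKT cells, which carry active AKT with no sgRNA directed at GPS2, no member was called higher, where 13.0% of all genes tested were, and TBL1X and TRAF6 were called lower, 2 of 9 against 16.8%. KO1, KO2 and myrAKT were all compared with the same 3 WT libraries. Side by side, the log2 fold changes of KO1, KO2 and myrAKT were 0.35, 0.33 and 0.17 for HDAC3, 0.30, 0.26 and -0.14 for UBE2N, -0.17, -0.24 and -0.42 for TBL1X, and -0.18, -0.11 and -0.43 for TRAF6. The KO lines were then compared with myrAKT directly, a comparison chosen after these values were seen. UBE2N was higher in the KO lines than in myrAKT (0.42 ± 0.0464, adjusted p = 1.11e-05), as were TBL1X (0.22 ± 0.0371, adjusted p = 0.000300) and TRAF6 (0.29 ± 0.0559, adjusted p = 0.000816). That is 3 of 9 genes higher and 0 lower, where 19.9% and 16.0% of all genes were called, and HDAC3 missed the threshold (0.17 ± 0.0420, adjusted p = 0.00351). The UBE2N call held in all 18 refits at the same threshold, while that of TBL1X was lost in 5, among them without myrAKT replicate 2 or 3, and that of TRAF6 in 13, among them without any 1 library except KO1 replicate 3 (adjusted p of at most 0.00248 and 0.00628).

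The comparison of treated with untreated KO cells asks how these transcripts respond to 4 h of 10 µM MK2206 when GPS2 is targeted. Whether a response runs through AKT was not tested. In KO1, TRAF6 was higher and TBL1X lower, 1 of 9 in each direction against 9.69% and 9.24% of all genes. In KO2, TRAF6 was higher and UBE2N lower, 1 of 9 in each direction against 12.3% and 10.1%. With both lines together TRAF6 was higher (0.51 ± 0.0433, adjusted p = 5.33e-07) and TBL1X and UBE2N lower (-0.20 ± 0.0317 and -0.22 ± 0.0326, adjusted p = 0.000116 and 9.23e-05), against 11.5% and 9.91% of all genes. The treated libraries were all shallower than the untreated ones, and the part of depth in these changes was not tested. The effect of MK2206 was not shown to differ between the lines for any member. The test of the difference called 0 of 9 genes at the threshold, where 0.0128% of all genes (2 of 15587) were called. At an unadjusted p under 0.05 it had 0 of 9 genes, against 1215 of 15587. For TRAF6 that difference was 0.01 on the log2 scale, with a 95% interval of -0.15 to 0.17. For UBE2N it was 0.00, with an interval of -0.11 to 0.11.

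Treated KO cells were also set against WT, again a comparison chosen after the values were seen. HDAC3 (0.40 ± 0.0414, adjusted p = 6.39e-06) and TRAF6 (0.36 ± 0.0616, adjusted p = 0.000301) were higher and TBL1X lower (-0.41 ± 0.0405, adjusted p = 4.92e-06), 2 and 1 of 9 against 16.5% and 15.6% of all genes. TRAF6 lost its call without WT replicate 1 or 2 and with the replicate number as a block (adjusted p of at most 0.00297). UBE2N, at 0.07 ± 0.0416, was not called (adjusted p = 0.193, 95% interval -0.02 to 0.15). Between the untreated lines, 0 of 9 genes were higher in KO1 than in KO2 and 1, TBL1XR1, was lower, against 7.65% and 5.07% of all genes.

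The wider corepressor machinery moved in both directions, and the counts below are to be read against the shares of all genes given for the same comparisons. With both KO lines against WT, 3 of 15 other corepressor genes were higher and 3 lower (median log2 fold change 0.04, against 0.02 over all genes tested). Alone, KO1 gave 4 higher and 3 lower against WT, and KO2 gave 4 and 4. HDAC5, a class IIa deacetylase, fell from 65.0 to 38.2 CPM (-0.77 ± 0.0980, adjusted p = 4.23e-05), and CORO2A, an actin-binding subunit of the complex, from 34.6 to 24.3 CPM (-0.51 ± 0.0527, adjusted p = 8.22e-06). In myrAKT 2 were higher and 2 lower (median 0.07), with HDAC4 higher (0.55 ± 0.0572, adjusted p = 1.34e-06) and CORO2A again lower (-0.48 ± 0.0570, adjusted p = 4.72e-06). MK2206 raised 4 and lowered 3 (median 0.08, against -0.02 over all genes). HDAC5 rose by 0.56 ± 0.0818 (adjusted p = 6.73e-05) to 56.4 CPM, and BCL6, a repressor that recruits these corepressors, by 0.48 ± 0.0915 (adjusted p = 0.000586).

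Among 18 other partners and ligases of UBC13, 1 was higher and 4 were lower with both KO lines together (median -0.12), 1 and 5 in myrAKT (median -0.04), and 5 and 1 after MK2206 in both lines (median 0.02). The fit of both lines together takes the difference between them as spread. Each line alone gave more calls, with 2 higher and 7 lower in KO1 and 2 higher and 10 lower in KO2 against WT, and with 5 higher and 2 lower in KO1 and 6 higher and 3 lower in KO2 after MK2206. Among the genes called with both lines together, the Pellino ligases PELI1 and PELI2, which act beside TRAF6 in interleukin-1 receptor signalling, had the largest changes against WT and after MK2206. PELI2 averaged 22.8 CPM in WT, 12.9 in the KO lines and 27.5 after treatment (-0.82 ± 0.0923 and 1.09 ± 0.0875, adjusted p = 1.66e-05 and 3.43e-07), and PELI1 averaged 22.6, 15.2 and 31.3 CPM (-0.57 ± 0.0713 and 1.04 ± 0.0863, adjusted p = 3.55e-05 and 4.28e-07). In myrAKT they moved apart, as PELI2 rose to 35.1 CPM (0.63 ± 0.0526, adjusted p = 1.29e-07) and PELI1 fell to 11.9 CPM (-0.92 ± 0.0739, adjusted p = 7.58e-08). BIRC3, an inhibitor of apoptosis that binds TRAF2, averaged 96.4 CPM in WT, 55.4 in KO1, 20.8 in KO2 and 27.98 in myrAKT. It fell in KO1 (-0.80 ± 0.0789, adjusted p = 4.88e-07), in KO2 (-2.21 ± 0.0840, adjusted p = 4.92e-11) and in myrAKT (-1.78 ± 0.0866, adjusted p = 3.98e-10), and with both KO lines together its change of -1.34 ± 0.342 was larger than that of PELI2 but was not called (adjusted p = 0.00518). CHFR, a mitotic checkpoint ligase, fell in myrAKT (-0.99 ± 0.0558, adjusted p = 1.99e-09) and by less in KO2 (-0.24 ± 0.0490, adjusted p = 0.000541), and was not called in KO1 (0.12 ± 0.0443, adjusted p = 0.0235).

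A further list of 14 genes held readers of such chains, deubiquitinases, and kinases of the same signalling such as IKBKB. Of these genes, 2 were higher and 2 lower with both KO lines together (median 0.04). The counts were 2 and 3 in KO1 alone and 3 and 4 in KO2 alone. They were 2 and 2 in myrAKT (median -0.05), and 1 and 3 after MK2206 (median -0.04). BRCC3, a deubiquitinase specific for lysine 63 chains, rose in the KO lines (0.46 ± 0.0427, adjusted p = 3.73e-06), and IKBKB, a catalytic subunit of the IκB kinase, fell (-0.43 ± 0.0678, adjusted p = 0.000218) and fell further with MK2206 (-0.27 ± 0.0524, adjusted p = 0.000722). TAB3, an adaptor that reads the chains for the kinase TAK1, rose with MK2206 (0.28 ± 0.0342, adjusted p = 1.20e-05). TNFAIP3, the ubiquitin-editing enzyme A20, averaged 49.1 CPM in WT, 38.6 in KO1, 17.9 in KO2 and 17.8 in myrAKT. It fell in KO1 (-0.35 ± 0.0568, adjusted p = 8.11e-05), in KO2 (-1.45 ± 0.0684, adjusted p = 3.48e-10) and in myrAKT (-1.47 ± 0.0780, adjusted p = 1.02e-09), while the fit of both KO lines together did not call it (-0.80 ± 0.274, adjusted p = 0.0254). In myrAKT OTULIN, which cleaves linear rather than lysine 63 chains, rose (0.62 ± 0.0429, adjusted p = 1.75e-08).

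Of 17 nuclear receptors that the complex binds, 1 was higher and 7 were lower with both KO lines against WT (median -0.24), with NR1H3, the liver X receptor alpha, falling from 29.7 to 10.6 CPM (-1.48 ± 0.0655, adjusted p = 6.09e-08) and RARG, a retinoic acid receptor, from 72.1 to 32.2 CPM (-1.16 ± 0.108, adjusted p = 3.73e-06). Of the 14 genes tested, out of 16, that are known as targets of these receptors, none was higher and 10 were lower (median -0.49), and without DHRS3 9 of 13 were lower (median -0.47). KLF9, a hormone-responsive transcription factor, fell from 22.0 to 4.34 CPM (-2.34 ± 0.111, adjusted p = 7.67e-08). DHRS3, a retinaldehyde reductase, is among the 10, but it passed the filter on low counts only through the WT libraries, so a difference from WT was built into its entry and its fold and test are not given. It had 86 to 137 counts per library in WT, 10 to 11 in KO1, 1 to 4 in KO2 and 3 to 5 in myrAKT.

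In myrAKT 1 receptor was higher and 9 were lower (median -0.20), and 4 target genes were higher and 3 lower (median -0.12), or 4 and 2 without DHRS3 (median -0.10). NR1H3 fell to 10.8 CPM (-1.46 ± 0.0773, adjusted p = 9.80e-10), ESRRA, an orphan receptor of energy metabolism, to 19.1 CPM (-0.95 ± 0.0569, adjusted p = 3.69e-09), and CPT1A, of mitochondrial fatty acid import, to 63.6 CPM (-1.13 ± 0.0414, adjusted p = 2.14e-11). Other target genes had higher means in myrAKT than in WT: ABCA1 (35.6 against 23.4 CPM), ABCG1 (12.8 against 8.8) and MYLIP (26.0 against 18.3). In the untreated KO lines these averaged 8.91, 1.93 and 14.1 CPM. ESRRA and CPT1A were also called lower in each KO line alone, with log2 fold changes of -0.28 and -0.32 in KO1 and -0.63 and -0.64 in KO2. MK2206 in the KO lines raised 3 receptors and lowered 3 (median -0.15), and raised 5 target genes and lowered 2 (median 0.19, or 0.27 without DHRS3). NR2F2, the receptor COUP-TFII, fell from 226 to 111 CPM (-1.02 ± 0.0579, adjusted p = 2.30e-08) and PPARG from 119 to 76.6 CPM (-0.63 ± 0.0405, adjusted p = 5.24e-08). KLF9 rose to 10.6 CPM (1.29 ± 0.113, adjusted p = 6.72e-07) and PDK4, a pyruvate dehydrogenase kinase, from 2.57 to 6.07 CPM (1.24 ± 0.186, adjusted p = 8.64e-05), both still below their WT means of 22.0 and 10.6 CPM.

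**Figure D4:**
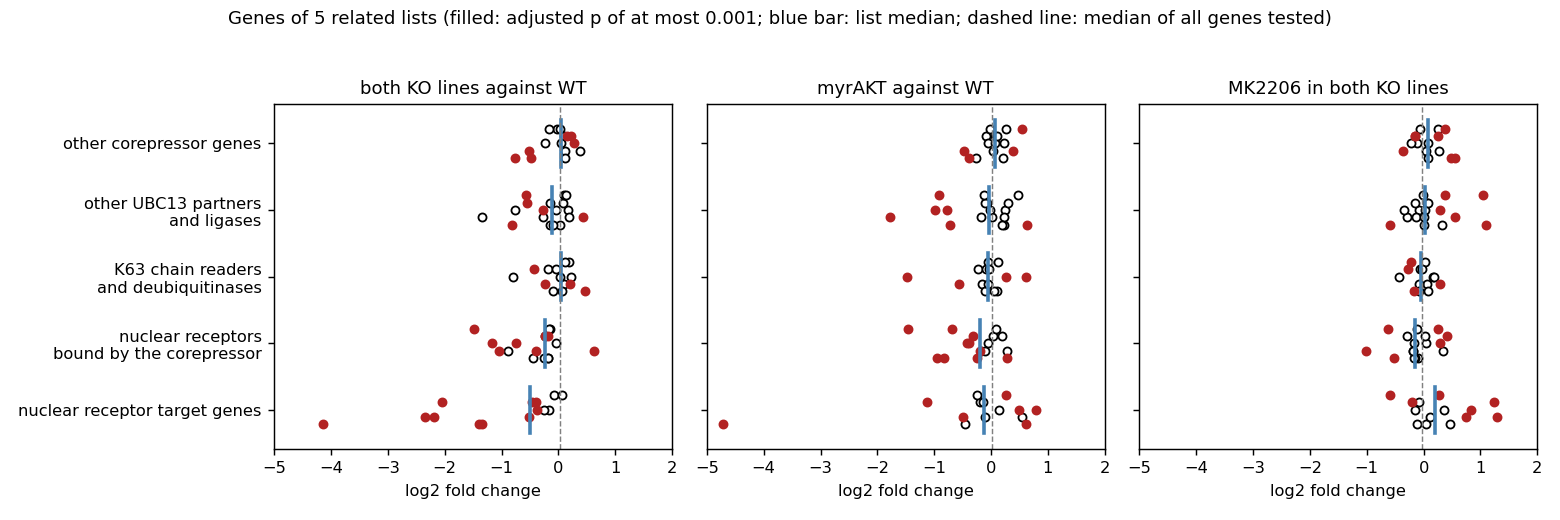
Log2 fold change (horizontal axis) of each tested gene of 5 related lists in 3 comparisons, filled where the gene was called, with a blue bar for the list median and a dashed line for the median of all genes tested. The medians of the receptors (-0.24) and of their target genes (-0.49) lie left of the line in the KO panel, and that of the target genes (0.19) lies right of it in the MK2206 panel.

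Across the 18 libraries, the log2 CPM of NEK2, a mitotic kinase, had the highest Pearson correlation with that of GPS2 (0.84), followed by MPC2, ENSG00000170846, ABCF3 (0.80 each) and MRFAP1L1 (0.79). Among the 9 genes, NCOR1 and TBL1XR1 had the highest correlation (0.86), which was 0.08 once group means were removed, whereas that of HDAC3 and UBE2N was 0.54 and rose to 0.79 within groups. These libraries share groups and scaling, and the values are given as a description.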

How the data were processed

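The authors extracted RNA from cultured MDA-MB-231 cells, depleted ribosomal RNA, sequenced the libraries in 2 paired-end runs, and made the deposited counts with FastQC, Trim Galore, HISAT2 on hg38 and featureCounts. Tool versions, annotation, strand setting and the treatment of reads overlapping several genes are not given in the sources used here. The deposited unit is the raw count of reads per Ensembl gene. Symbols and positions came from GENCODE release 44 (56948 of 57448 genes), promoters from RefSeq.

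The 15587 genes reaching 1 CPM in 3 or more of 18 libraries were compared with edgeR 4.0.16 in R 4.3.3, using TMM factors from all libraries, the two-sided quasi-likelihood test, only the groups compared in each fit, and Benjamini-Hochberg adjustment over all genes tested. Genes were called at an adjusted p of at most 0.001. SE is the log2 fold change divided by the square root of F, and 95% intervals are 1.96 SE to each side. With so few libraries this normal multiplier makes the intervals narrower than the test allows. For GPS2 in myrAKT against WT the interval was 0.02 to 0.53, while the unadjusted p of the quasi-likelihood test was 0.0563. Correlations used log2 CPM with a prior count of 2. DESeq2 1.42.0, other scalings, no filter, other sample sets, a replicate block and leaving out each library were alternatives. Depth was 23419198 to 39319910 counted reads per library. The fits were tested on simulated data, and figures were drawn with matplotlib 3.10.9.

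The members and lists were chosen with earlier results of these data known, and 2 comparisons and the counts without DHRS3 were added after seeing the data. Named genes were the 9 members, the 2 called genes of largest change per list and comparison, genes whose exons overlap a member's, and the 5 genes most like GPS2. ABCA1, ABCG1 and MYLIP were added for their levels in myrAKT. 1 gene of the corepressor list is not reported here and was left out of its counts.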

Additional observations from a re-analysis of the deposited data

Results flagged for a closer look

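The KO lines stood on different sides of the WT mean, though not of the WT range, for GPS2 and NCOR1, untested as a pattern, and differed by test for TBL1XR1. Every KO1 library of GPS2 lay below the WT mean and every KO2 library above it (log2 fold changes -0.02 and 0.40 against WT), and the difference between the lines missed the threshold of the direct test (adjusted p = 0.00140). The KO1 libraries of GPS2 lay inside the WT range. NCOR1 had the same split about the WT mean, with KO2 overlapping WT (-0.05 and 0.07, adjusted p = 0.00690 for the direct test). TBL1XR1 passed the direct test (KO1 against KO2, -0.23, adjusted p = 2.84e-05).

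For UBE2N every KO1 and KO2 library lay above the WT mean (0.30 and 0.26) and every myrAKT library below it (-0.14). The KO lines differed from myrAKT in the direct comparison (adjusted p = 1.11e-05).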

How the results depend on the processing

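Of 1881 values of single members recomputed under alternatives, 1750 kept their direction and their side of the threshold. The calls of HDAC3 and UBE2N in the KO lines and of TRAF6 with MK2206 held in all of theirs at the same threshold, and were lost only when a minimum fold of 1.5 was required.

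Counts of members moved as follows. At a minimum fold of 1.5 every count above 0 in a comparison of groups became 0. At an adjusted p of 0.05 the number lower became 4 in KO1 against WT (with 3 higher), 3 in both KO lines against WT, 4 in myrAKT (with 1 higher), 4 in each MK2206 line (with 2 higher in KO1), 3 for MK2206 in both lines, 3 in KO1 against KO2, 1 in KO against myrAKT (with 4 higher) and 3 in treated KO against WT (with 3 higher), and the number higher became 3 in KO2 against WT. These counts are to be read against all 15587 genes tested. At 0.05, 10111 of them were called in KO1, 10384 in KO2, 9372 in both KO lines and 8442 in myrAKT, each against WT. MK2206 gave 7067 in KO1, 7348 in KO2 and 7374 in both lines. There were 5210 in KO1 against KO2, 9808 in KO against myrAKT and 9300 in treated KO against WT. With library totals or upper-quartile factors 1 member was higher in myrAKT and 1 in KO against myrAKT. The number lower was 2 for MK2206 in KO1 with DESeq2, upper-quartile factors, no filter or all 18 libraries in 1 fit, and in KO2 with the last 3. It was 4 for MK2206 in both lines with all libraries in 1 fit or the line as covariate, 2 for KO1 against KO2 with DESeq2, totals or no filter, 2 for treated KO against WT with DESeq2 or all libraries, and 0 for both KO lines without the filter. Leaving out each replicate gave 1 to 2 lower in KO1 and in myrAKT, 0 to 1 in both KO lines, 0 to 3 and 0 to 2 for MK2206 in KO1 and KO2, 1 to 3 higher in KO against myrAKT and 1 to 2 in treated KO against WT. The cause of these moves was not tested, beyond the smaller number of libraries.

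The replicate numbers did not pair the libraries: deviations of same-numbered libraries correlated at -0.32 to 0.19, with 5 of 21 over 0.1 and 8 of 21 libraries closest to their own number. With the number as a replicate block the members lower became 0 in both KO lines and 2 for MK2206 in KO1 and in KO2, and those higher 1 in KO against myrAKT and 1 in treated KO against WT. Calls over all genes went from 5057 to 3753 in both KO lines.

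Values near 0 changed sign. NCOR1 in both KO lines was -0.01 with DESeq2, DESeq2-type factors or TMM of the compared libraries and -0.03 with upper-quartile factors or totals (-0.01 to 0.02 over replicates left out). NCOR1 in myrAKT was 0.00 with DESeq2-type factors and 0.03 with the latter pair (-0.03 to 0.02). UBE2V1 in myrAKT was -0.03 without the filter (-0.12 to 0.14). HDAC3 in KO1 against KO2 was -0.00 with upper-quartile factors and -0.01 with totals (-0.02 to 0.04). Over replicates left out, GPS2 in KO1 ran from -0.05 to 0.03 and UBE2V1 with MK2206 in KO2 from -0.06 to 0.13. The difference in MK2206 effect was -0.01 and -0.02 for NCOR1 and -0.02 for TRAF6 with upper-quartile factors and totals, and for UBE2N -0.00 with DESeq2, -0.03 with both of these and -0.01 with TMM of the compared libraries or no filter (0.00 to 0.03, -0.04 to 0.05 and -0.04 to 0.03 over replicates). In KO against myrAKT, NCOR1 was -0.01 with DESeq2, -0.02 with DESeq2-type factors, -0.06 and -0.07 with upper-quartile factors and totals and -0.00 with TMM of the compared libraries (-0.02 to 0.04). TBL1XR1 was -0.00, -0.01, -0.05 and -0.05 with the same settings in that order, TMM excepted (-0.01 to 0.05), TRAF2 was 0.03 without the filter (-0.04 to 0.02) and GPS2 ran from -0.20 to 0.01. TRAF2 in treated KO against WT was -0.00 with DESeq2-type factors or no filter and -0.04 with upper-quartile factors (-0.01 to 0.02).

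Another scaling moved the share of calls that were higher from 55.4% to 44.2% in KO against myrAKT, from 51.2% to 63.7% for MK2206 in KO1 and from 60.2% to 50.1% in KO1 against KO2 (TMM to library totals). Against WT it moved from 52.4% to 43.7% in KO1, from 49.6% to 45.9% in KO2 and from 52.2% to 45% in both KO lines. In myrAKT against WT it went from 43.8% to 50.9%, and for MK2206 in both lines from 53.7% to 63.3%. GPS2, at 123 to 236 counts per library, and UBE2V1, at 294 to 573, had the fewest reads and the widest SE of the members in the KO comparisons, so changes of their size were the hardest to detect at this depth.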
